A study of Mus musculus with 11 samples.

Results

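Transcripts of 9 complement components and regulators were followed in the apex of the mouse heart 2 weeks after proton irradiation. The set holds 3 genes grouped as macrophage-made, C1qa, C1qb and C1qc, and 6 grouped as stroma-made, C1ra, C3, C4b, C7, Cfb and Serping1. They were found by symbol, through their Ensembl identifiers with the version dropped, among the 55414 gene identifiers of the deposited tables. All libraries came from C57BL/6 mice, with no transgene or deletion in the labels. The groups were 4 libraries of hearts left unirradiated (NR), 4 libraries of hearts given standard proton radiotherapy (S-PRT) and 3 of hearts given the FLASH form (F-PRT), which delivers the dose at a far higher rate. Both irradiated groups had received 40 Gy to the apex in 1 dose. The labels give no age or sex, and do not tell whether each library of a group is a different animal. The p-values below therefore rest on the spread among these libraries, part of which may be technical.

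Complement is a cascade of plasma and tissue proteins that tags cells and debris for uptake and recruits leukocytes. C1q, built from the products of C1qa, C1qb and C1qc, recognises immune complexes and dying cells and activates the proteases C1r and C1s, which cleave C4 and C2 and so lead to cleavage of C3. Factor B amplifies C3 cleavage through the alternative pathway, C7 belongs to the terminal membrane attack complex, and the C1 inhibitor encoded by Serping1 stops C1r and C1s. The liver supplies most circulating complement, but resident macrophages are a major source of C1q, and fibroblasts of many tissues make C1r, C1s, C3 and C1 inhibitor.

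Libraries held 20758170 to 40136578 expected counts. All 8 cardiomyocyte markers were detected in every library, with a summed level of 32760 to 65340 TPM. Levels of a gene across libraries are given as CPM, counts relative to the TMM-scaled library size, and levels between genes as TPM, which are also corrected for transcript length. Differences are log2 fold changes with their standard errors from a single edgeR quasi-likelihood fit to 14556 genes, called at a Benjamini-Hochberg adjusted p under 0.05 over all of them. S-PRT and F-PRT were compared with the same NR libraries, so these comparisons are not independent of each other. Some features of the libraries touch the values below. Genes with long transcripts were relatively more abundant in the NR libraries (Spearman's rho across genes, which are not independent replicates, of 0.338 to 0.418 between length and deviation from the mean of all libraries) than in the S-PRT (-0.257 to 0.267) and F-PRT libraries (-0.556 to -0.162). Replicates 3 and 4 of NR carried mesothelial transcripts, with a summed TPM of 5.58 and 9.36 over 7 markers against 0.73 to 2.37 in the other libraries. Mitochondrially encoded transcripts made up 30.6 to 43.8% of the expected counts in NR, 37.1 to 43.5% in S-PRT and 24.2 to 42.3% in F-PRT. TPM of other genes depend on that share, and so do the summed TPM of gene lists compared between libraries below. The part that transcript length, mesothelium and the mitochondrial share take in the results was not tested beyond the values given with them.

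All 9 genes were detected in every library and passed the count filter. In the NR libraries C1qa was the highest at 29.9 ± 11.6 TPM (SD, n = 4), next to Serping1 at 28.9 ± 12.6, C1qb at 28.2 ± 11.8 and C1qc at 22.7 ± 7.81. C3, the central component, stood at 16.8 ± 10.7 TPM, and its range over libraries overlapped the ranges of those 4. A second tier was made of C1ra at 3.32 ± 1.34, C7 at 2.64 ± 1.52 and C4b at 1.62 ± 0.937 TPM, whose ranges over libraries overlapped. Cfb, at 0.475 ± 0.314 TPM, was the lowest. Neighbours in this order had overlapping ranges over libraries, except for C3 and C1ra. The lowest C3 library (5.62 TPM) lay above the highest C1ra library (4.85 TPM). Overlapping ranges do not exclude a difference within libraries, and C1qb was above C1qc in all 4 NR libraries (TPM ratio 1.05 to 1.32). In the NR libraries the mean level of C1qa exceeded that of 88.8% of the genes tested, and that of Cfb exceeded 14.6%.

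**Figure D1:**
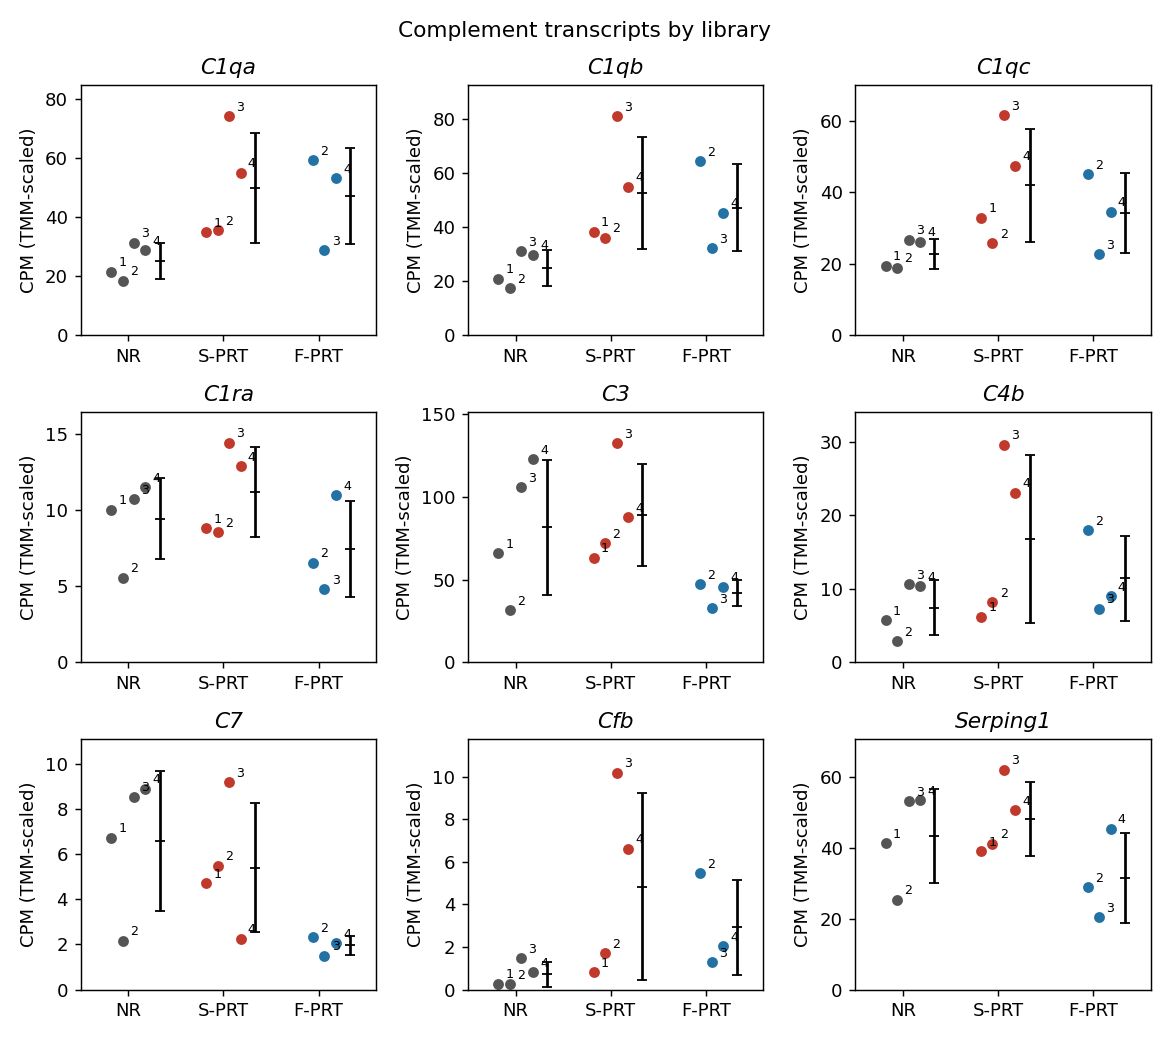
Each panel plots 1 gene, with TMM-scaled CPM on a linear axis from 0 and the 11 libraries as points marked by replicate number in 3 groups. The bar beside each group is the mean with its SD (n = 4, 4 and 3). C1qa and C1qb of all 4 S-PRT libraries lie above every NR library, while C3 of all 3 F-PRT libraries lies below every S-PRT library.

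The C1q transcripts had fitted levels 1.5 to 2.12 times those of NR after either mode of irradiation, and which of them passed depended on the fit. C1qa (ENSMUSG00000036887.6) encodes the A chain of C1q. It measured 21.5, 18.4, 31.4 and 28.8 CPM in NR (replicates 1 to 4), 34.97, 35.6, 74.2 and 54.98 CPM in S-PRT (numbered likewise) and 59.3, 28.7 and 53.1 CPM in F-PRT (replicates 2 to 4), the order used throughout. Every S-PRT library was above every NR library, while F-PRT 3 lay inside the NR range. C1qb (ENSMUSG00000036905.9), the B chain, measured 21.0, 17.4, 31.1 and 29.8 CPM in NR, 38.4, 36.1, 81.0 and 54.9 CPM in S-PRT, and 64.3, 32.1 and 45.3 CPM in F-PRT, so that all 7 irradiated libraries were above all 4 NR libraries. C1qc (ENSMUSG00000036896.6), the C chain, measured 19.5, 18.8, 26.8 and 26.1 CPM in NR, 32.9, 25.8, 61.5 and 47.4 CPM in S-PRT, and 45.0, 22.7 and 34.6 CPM in F-PRT. For this gene S-PRT 2 and F-PRT 3 fell inside the NR range. Replicates 3 and 4 were higher than replicates 1 and 2, within NR and within S-PRT, for all 3 chains. In bulk tissue, fewer cells of a type and less RNA per cell cannot be told apart, and the same holds for more.

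The upstream sequences of C1qb and C1qc are shown because these neighbours on chromosome 4 encode chains of the same protein. They are the 250 bases before the RefSeq gene start on GRCm38.p6, 5′ to 3′ on the strand of the gene. The build behind the deposited tables is given as both GRCm39 and mm10, so these positions belong to RefSeq and not to the counts. Capitals mark matches, on either strand, to the motifs searched in all promoters shown here, which were GAS (TTCNNNGAA), ISRE (GAAA, any 2 bases, GAAA), C/EBP (TTGCNNAA), PU.1 (GAGGAAGT) and the NF-kB consensus.
C1qb (chr4:136886201-136886450, minus strand): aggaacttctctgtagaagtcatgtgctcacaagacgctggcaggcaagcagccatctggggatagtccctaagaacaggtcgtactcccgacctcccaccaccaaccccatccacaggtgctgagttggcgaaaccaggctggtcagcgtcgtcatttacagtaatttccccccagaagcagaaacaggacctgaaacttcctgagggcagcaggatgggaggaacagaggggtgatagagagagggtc
C1qc (chr4:136892915-136893164, minus strand): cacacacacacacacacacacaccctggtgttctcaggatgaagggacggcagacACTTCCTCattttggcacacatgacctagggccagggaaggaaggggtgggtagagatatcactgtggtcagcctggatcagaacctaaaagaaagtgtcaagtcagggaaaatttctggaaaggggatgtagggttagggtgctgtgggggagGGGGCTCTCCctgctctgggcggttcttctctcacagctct
None of the 5 motifs was found in the C1qb window. The C1qc window held a PU.1 match on the minus strand at bases -195 to -188 from the start, a motif of a myeloid transcription factor, and an NF-kB match at -41 to -32, and these did not overlap. Of 32851 RefSeq promoter windows of this length, 2.44% held the PU.1 letters and 3.9% the NF-kB consensus, against 7.02% for GAS, 2.98% for ISRE and 9.56% for C/EBP. A match describes the letters only.

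After S-PRT the log2 fold changes were 0.998 ± 0.27 for C1qa (SE, n = 4 and 4, adjusted p = 0.095 in edgeR), 1.08 ± 0.28 for C1qb (adjusted p = 0.082) and 0.88 ± 0.26 for C1qc (adjusted p = 0.11), so none was called. The whole set gave 0 calls of 9 in this comparison, against 1.29% of all genes tested. At an unadjusted p under 0.05, 5 members were higher and none lower (C1qa, C1qb, C1qc, C4b and Cfb), against 18.3% of all genes that passed that threshold in either direction. DESeq2 called 4 of the 9, all higher (C1qa with adjusted p = 0.0088, C1qb 0.039, C1qc 0.020 and Cfb 0.040), against 3.16% of genes. Same-numbered NR and S-PRT libraries deviated from their group means together, but so did NR and S-PRT libraries of different number within replicates 1 and 2 and within replicates 3 and 4. With the replicate number as a block edgeR called 5 of 9 as higher, against 6.42% of genes higher and 3.33% lower. In that fit C1qa rose by 0.96 ± 0.09 (adjusted p = 0.00060), C1qb by 1.05 ± 0.09 (0.00048) and C1qc by 0.83 ± 0.11 (0.0031). Within numbers, the S-PRT library exceeded its NR library in 4 of 4 pairs for each chain, by 0.70 to 1.24 log2 units for C1qa, 0.87 to 1.38 for C1qb and 0.45 to 1.20 for C1qc. C1qa and C1qb were the 2 members whose S-PRT libraries all lay above the NR libraries, which held for 7.34% of genes. For these 2 genes the 4 of 4 pairs would follow from any pairing, so that count adds nothing to the lack of overlap.

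After F-PRT, C1qa rose by 0.91 ± 0.29 on the log2 scale (n = 3 and 4, adjusted p = 0.045 in edgeR), or 1.88-fold, and C1qb by 0.93 ± 0.30 (adjusted p = 0.046), or 1.90-fold. C1qc, at 0.58 ± 0.28 (adjusted p = 0.15), did not pass. These were 2 rises among the 9 members, against 10.8% of genes that rose. DESeq2 called C1qa (adjusted p = 0.013) but not C1qb (adjusted p = 0.055). Once the length trend was removed, the fold changes were 0.58 for C1qa (adjusted p = 0.24) and 0.62 for C1qb (0.23), neither called, and both calls were also lost with library-size scaling, on TPM and without any 1 of NR 1 to NR 4, F-PRT 2 or F-PRT 4 (adjusted p between 0.012 and 0.15 for C1qa over all single libraries left out, the lowest without F-PRT 3). Only C1qb had all F-PRT libraries above all NR libraries, a pattern that 17.5% of genes showed. With the irradiated groups averaged, C1qa rose by 0.96 ± 0.25 (adjusted p = 0.029) and C1qb by 1.005 ± 0.26 (adjusted p = 0.026), and C1qc stood at 0.73 ± 0.24 (adjusted p = 0.055). Together with Cfb this made 3 rises and 0 falls among the 9, against 8.15% and 6.40% of genes, and C1qb alone had all 7 irradiated libraries above NR, as had 4.95% of genes. These 3 calls were lost with the length trend removed (adjusted p = 0.11 for C1qa, 0.096 for C1qb and 0.089 for Cfb), and each was lost without any 1 NR library, apart from C1qb without NR 3. The call for C1qa was also lost without F-PRT 2, and that for Cfb without S-PRT 3, S-PRT 4, F-PRT 2 or F-PRT 4.

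C1qa and C1qb kept nearly fixed proportions in NR and S-PRT, while C1qc was lower relative to both in the F-PRT libraries. The TPM ratio of C1qa to C1qb was 1.07 ± 0.0418 for NR (SD, n = 4), 1.01 ± 0.05 for S-PRT (n = 4) and 1.05 ± 0.162 for F-PRT (n = 3). F-PRT 4 stood at 1.24, above every other library, with 0.975 in F-PRT 2 and 0.945 in F-PRT 3. The ratio of C1qb to C1qc was 1.22 ± 0.123, 1.43 ± 0.136 and 1.57 ± 0.0737, with 1.05 to 1.32 for NR, 1.31 to 1.59 for S-PRT and 1.48 to 1.61 for F-PRT. The S-PRT and NR ranges overlapped slightly and the F-PRT range lay above the NR range. The ratio of C1qa to C1qc went likewise, at 1.17 to 1.41 for NR, 1.27 to 1.66 for S-PRT and 1.51 to 1.84 for F-PRT.

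Set against macrophage genes within a library, C1q depended on the gene chosen. The TPM ratio of C1qa to Csf1r, the receptor that macrophages need to survive, was 3.53 to 4.05 for NR, 6.19 to 8.65 for S-PRT and 6.82 to 10.7 for F-PRT, with no overlap between irradiated and NR libraries. Csf1r itself measured 24.7, 21.6, 34.6 and 36.9 CPM in NR, 18.5, 20.1, 41.9 and 37.8 CPM in S-PRT and 33.6, 19.5 and 25.4 CPM in F-PRT, a log2 fold change of 0.01 ± 0.27 after S-PRT (adjusted p = 0.99 in edgeR). The ratio of C1qa to Cd68, a lysosomal protein of phagocytes, was 6.45 to 8.68 for NR, 6.71 to 9.70 for S-PRT and 7.72 to 14.7 for F-PRT, and these ranges overlapped. The fold change of Cd68 after S-PRT was 0.88 ± 0.28 (adjusted p = 0.13). The ratio of C1qa to Lyz2, another macrophage gene, was 0.394 to 0.486 for NR, 0.450 to 0.525 for S-PRT and 0.487 to 0.535 for F-PRT. Transcripts of C1qa have 1040 bases, against 1075 to 1230 for Cd68, 1316 for Lyz2 and 3623 to 4461 for Csf1r. The length trend between the groups therefore bears on the ratio to Csf1r, and its part was not tested. The expected counts of Csf1r and Lyz2 were not whole in any of the 11 libraries. Reads were thus shared with other genes, so the levels of both are uncertain.

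Other macrophage and monocyte markers moved in both directions, but most had a positive fold change. All 22 genes of the marker list were tested, and none was at 0 TPM in any library. After S-PRT, 3 of the 22 rose and 1 fell (14 and 2 with the replicate block), against 1.29% of all genes called (6.42% and 3.33% with the block), with a median log2 fold change of 0.79 against 0.01 for all genes. Aif1 (1.47, adjusted p = 0.033 in edgeR), the monocyte chemokine receptor Ccr2 (2.33, adjusted p = 0.0032) and Fcer1g (1.20, adjusted p = 0.048) rose. Cd163, a marker of resident macrophages, fell by 1.51 (adjusted p = 0.0055). Other resident macrophage genes of the list did not all follow Cd163. Mean CPM in S-PRT against NR was lower for Timd4 (0.559 against 1.37), without overlap of libraries. It was 20.63 against 18.03 for Mrc1, 6.92 against 5.665 for Folr2, 4.074 against 3.696 for Mertk and 9.189 against 9.671 for Lyve1, all with overlap. After F-PRT, 3 rose and 2 fell, against 10.8% and 8.67% of all genes, with a median of 0.53. Fold changes were positive for 19 of the 22 after S-PRT and 18 after F-PRT. Over both modes 8 rose and 2 fell, against 8.15% and 6.40% of all genes. The summed TPM of the list was 100.7 to 214 for NR, 139 to 324 for S-PRT and 114 to 298 for F-PRT, and these ranges overlapped. The part of macrophage number in the C1q result was not tested.

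Markers of other cell types differed between the groups too. Of 10 endothelial markers, all tested, 0 rose and 2 fell after S-PRT, against 1.29% of all genes called, with a median log2 fold change of -0.56. With the replicate block 0 rose and 6 fell, against 6.42% and 3.33% of all genes. After F-PRT 1 rose and 2 fell, against 10.8% and 8.67% of all genes, with a median of -0.57. Over both modes 1 rose and 4 fell, against 8.15% and 6.40%. Their summed TPM was 435 to 803 for NR, 326 to 455 for S-PRT and 357 to 1195 for F-PRT, and the ranges overlapped. Of 6 neutrophil markers 3 were tested, and after S-PRT 0 were called in edgeR, with a median of 1.65. All 3 were higher at an unadjusted p under 0.05, which 18.3% of all genes passed in either direction. With the replicate block 2 rose, against 6.42% of all genes. Their summed TPM was 2.76 to 7.72 for NR, 5.38 to 21.3 for S-PRT and 6.21 to 21.98 for F-PRT, with overlap. Of 7 mural cell markers, all tested, 0 were called after S-PRT in edgeR, with 1 higher and 2 lower at the same unadjusted threshold. With the replicate block 2 fell, against 3.33% of all genes, and 1 fell after F-PRT, against 8.67%. The part of these cell types in the levels of the complement genes was not tested.

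**Figure D2:**
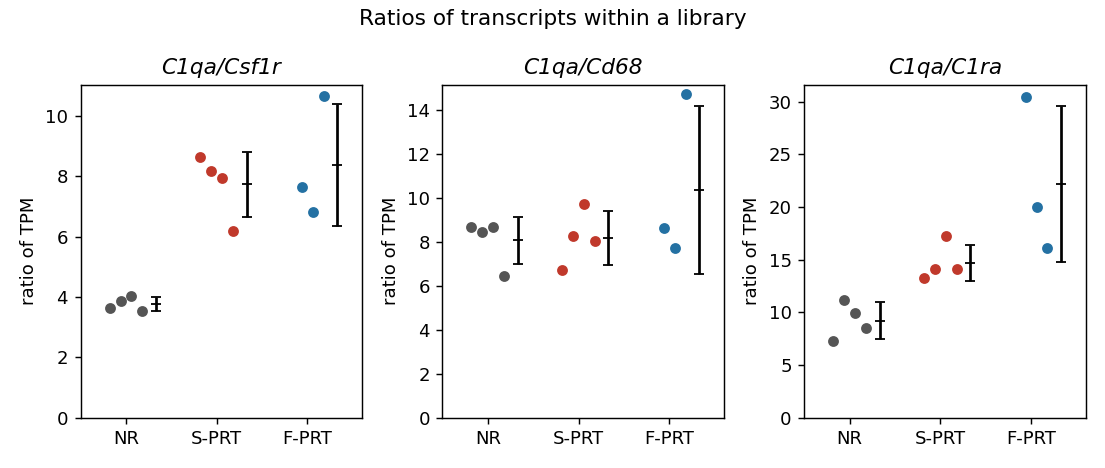
Each panel plots the ratio of the TPM of 2 genes within a library, on a linear axis from 0, for the NR, S-PRT and F-PRT libraries, and the bar is the mean with its SD (n = 4, 4 and 3). C1qa/Csf1r separates NR (3.53 to 4.05) from the irradiated libraries (6.19 to 10.7), C1qa/Cd68 does not, and C1qa/C1ra rises above the NR range in every irradiated library. The transcripts of Csf1r and C1ra are longer than that of C1qa.

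Neither the protease that C1q activates nor the inhibitor of that protease was called. C1ra (ENSMUSG00000055172.11), the C1r protease, measured 10.1, 5.57, 10.7 and 11.5 CPM in NR, 8.83, 8.58, 14.5 and 12.9 CPM in S-PRT and 6.57, 4.84 and 10.99 CPM in F-PRT. Serping1 (ENSMUSG00000023224.13), the C1 inhibitor, measured 41.4, 25.4, 53.2 and 53.4 CPM in NR, 39.1, 41.2, 62.1 and 50.6 CPM in S-PRT and 29.0, 20.4 and 45.4 CPM in F-PRT. All groups overlapped for both genes, and NR 2 and F-PRT 3 were low for both. Neither passed in any comparison, which does not show that their levels were unchanged. After S-PRT the fold changes were 0.24 ± 0.27 for C1ra (adjusted p = 0.68 in edgeR) and 0.15 ± 0.26 for Serping1 (adjusted p = 0.80), and after F-PRT they were -0.33 ± 0.30 (0.45) and -0.45 ± 0.28 (0.27). Once the length trend was removed, Serping1 stood at -0.63 ± 0.24 after F-PRT (adjusted p = 0.17 in edgeR). For F-PRT against S-PRT, DESeq2 gave an unadjusted p of 0.040 for C1ra and 0.021 for Serping1 (adjusted p = 0.25 and 0.19).

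C1ra and Serping1 also moved together over libraries, with a TPM ratio of Serping1 to C1ra of 7.87 to 9.45 for NR, 7.23 to 8.89 for S-PRT and 7.40 to 8.19 for F-PRT. C1s1, the partner protease of C1r, kept a TPM ratio of C1ra to C1s1 of 0.520 ± 0.0342 for NR, 0.614 ± 0.0892 for S-PRT and 0.535 ± 0.0357 for F-PRT, and its own level was 16.7 ± 5.03 CPM in NR, 16.4 ± 2.75 for S-PRT and 13.2 ± 6.21 for F-PRT. The near copies C1rb and C1s2 had 0 counts in all 11 libraries, so no reads were assigned to them in place of C1ra and C1s1. The TPM ratio of C1qa to C1ra was 7.24 to 11.2 for NR, 13.2 to 17.2 for S-PRT and 16.1 to 30.4 for F-PRT. C1qa, grouped as macrophage-made, was therefore higher relative to C1ra, grouped as stroma-made, in each of the 7 irradiated libraries than in any NR library. C1qa has a transcript of 1040 bases and C1ra of 2981 bases, so the length trend between the groups bears on this ratio, and its part was not tested.

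C4b and Cfb were both highest in S-PRT 3, S-PRT 4 and F-PRT 2. C4b (ENSMUSG00000073418.5) encodes C4, which C1s cleaves, and it measured 5.79, 2.92, 10.7 and 10.4 CPM in NR, 6.21, 8.20, 29.6 and 23.1 CPM in S-PRT and 17.97, 7.34 and 8.98 CPM in F-PRT. S-PRT 3, S-PRT 4 and F-PRT 2 were above all NR libraries, and the other irradiated libraries were within the NR range. Its fold change was 1.17 ± 0.50 after S-PRT (adjusted p = 0.24 in edgeR) and 0.61 ± 0.54 after F-PRT (adjusted p = 0.44). With the replicate block it rose after S-PRT by 1.09 ± 0.20 (adjusted p = 0.011), and within numbers it was higher in 4 of 4 pairs, by 0.10 to 1.47 log2 units. Reads of C4b can be shared with its near copy C4a, and 8 of 11 libraries had expected counts that were not whole, but the counts of C4a reached at most 2.56% of those of C4b. The deposited length of C4b ranged from 2377 to 5117 bases between libraries, so isoform estimates move its TPM, and its CPM is used here.

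Cfb (ENSMUSG00000090231.11), factor B, was the member with the largest fold change in both comparisons with NR, and the one at the lowest level. It measured 0.281, 0.262, 1.48 and 0.821 CPM in NR, which came from 7, 7, 50.4 and 37 expected counts, against 0.814, 1.70, 10.2 and 6.61 CPM in S-PRT and 5.47, 1.28 and 2.04 CPM in F-PRT. The ranges overlapped, since NR 3 lay above S-PRT 1 and F-PRT 3. The fold changes were 2.72 ± 0.76 after S-PRT (adjusted p = 0.097 in edgeR), or 6.61-fold, 1.99 ± 0.81 after F-PRT (adjusted p = 0.098), or 3.97-fold, and 2.36 ± 0.71 over both modes (adjusted p = 0.045). Single libraries moved these folds by more than 1.5 times. The log2 fold change after S-PRT was 2.09 without S-PRT 3 and 3.31 without NR 3, that after F-PRT was 1.19 without F-PRT 2 and 2.58 without NR 3, and that over both modes was 2.94 without NR 3. Without both NR 3 and NR 4 the values were 4.16 after S-PRT and 3.43 after F-PRT. Within numbers the S-PRT library was higher in 4 of 4 pairs, by 1.34 to 2.91 log2 units, and with the replicate block the rise was 2.72 ± 0.22 (adjusted p = 0.00030). Within groups Cfb spread by 12.5 times between the lowest and highest S-PRT library, compared with 2.12 times for C1qa.

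Genes of the interferon response were high in the libraries in which Cfb was high. The summed TPM of 18 such genes was 64.6, 72.6, 169 and 151 over the NR libraries, 159, 148, 394 and 426 over those given S-PRT, and 479, 116 and 250 over those given F-PRT. Of these 18 genes, 4 rose after S-PRT, against 1.29% of all genes called, and 9 after F-PRT, where 10.8% of all genes rose. With the replicate block 14 rose after S-PRT, against 6.42%. None fell, and the median log2 fold changes were 1.42 after S-PRT and 1.26 after F-PRT. Whether interferon has a part in the Cfb level was not tested.

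C3 and C7 went the other way in the F-PRT libraries. C3 (ENSMUSG00000024164.16) is the component on which all pathways converge, and it measured 66.2, 31.5, 106 and 123 CPM in NR, 63.4, 72.2, 132.5 and 87.8 CPM in S-PRT and 47.4, 32.7 and 45.7 CPM in F-PRT. All F-PRT libraries were below all S-PRT libraries, while NR 2 was as low as the F-PRT group. C7 (ENSMUSG00000079105.5), a terminal component, measured 6.71, 2.17, 8.53 and 8.88 CPM in NR, 4.71, 5.48, 9.17 and 2.25 CPM in S-PRT and 2.32, 1.501 and 2.04 CPM in F-PRT. NR 2 and S-PRT 4 were as low as the F-PRT libraries, and the groups overlapped. For both genes NR 2 was the lowest and NR 4 the highest of the NR libraries.

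The windows upstream of C3 and C7 are shown because these were the 2 members that were lower after F-PRT than after S-PRT at an unadjusted p under 0.05. They were taken and marked in the same way as those of the C1q genes.
C3 (chr17:57228137-57228386, minus strand): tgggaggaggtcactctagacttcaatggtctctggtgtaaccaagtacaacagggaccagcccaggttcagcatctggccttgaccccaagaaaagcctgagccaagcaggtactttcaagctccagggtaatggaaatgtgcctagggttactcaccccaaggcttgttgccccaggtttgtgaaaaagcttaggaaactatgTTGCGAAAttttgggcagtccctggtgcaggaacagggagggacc
C7 (chr15:5063774-5064023, minus strand): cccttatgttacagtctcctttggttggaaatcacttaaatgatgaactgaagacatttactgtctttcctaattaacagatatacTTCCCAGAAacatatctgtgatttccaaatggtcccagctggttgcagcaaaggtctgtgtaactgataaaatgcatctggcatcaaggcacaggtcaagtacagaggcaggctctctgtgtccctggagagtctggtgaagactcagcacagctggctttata
The C3 window held a C/EBP match at bases -45 to -38, and the C7 window a GAS match at -164 to -156. No motif overlapped another. Of the 9 members, 5 had a RefSeq promoter window, and the C1ra window, which is not shown, held none of the motifs.

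After F-PRT, C7 fell by 1.74 ± 0.50 on the log2 scale (n = 3 and 4, adjusted p = 0.031 in edgeR), to 0.299 times its NR level. It was the 1 fall among the 9 members, against 8.67% of genes that fell. C3 stood at -0.96 ± 0.38 (adjusted p = 0.089). The call for C7 was lost with the length trend removed (fold change -1.72, adjusted p = 0.069) and without any 1 of NR 1, NR 3, NR 4 or the F-PRT libraries. In a fit chosen after seeing the data, NR 3 and NR 4, the libraries with mesothelial transcripts, were left out. The fold change of C7 was then -1.16 (adjusted p = 0.20 in edgeR) and that of C3 was -0.22 (adjusted p = 0.70). NR 3 and NR 4 also had higher summed TPM of fibroblast markers (809 and 973) than NR 1 and NR 2 (575 and 388). The same held for macrophage and monocyte markers (177 and 214 against 107 and 101). Which of these features bears on the fold changes was not tested. After S-PRT the fold changes were 0.12 ± 0.34 for C3 (adjusted p = 0.89) and -0.30 ± 0.42 for C7 (adjusted p = 0.75), and 2 of 4 number pairs were higher in S-PRT for each gene.

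Few fibroblast markers were called. Of 14 fibroblast markers, all tested, none rose and 2 fell after F-PRT, against 10.8% and 8.67% of all genes, with a median log2 fold change of -0.43. In that comparison 1 of the 14 had a positive fold change. There, 0 were higher and 5 lower at an unadjusted p under 0.05 in edgeR, against 19.6% and 16.5% of all genes. After S-PRT 0 rose and 0 fell in edgeR, against 1.29% of all genes called, with a median of 0.01. At an unadjusted p under 0.05, 1 was higher and 2 lower, against 18.3% of all genes in either direction. With the replicate block 1 rose and 1 fell, against 6.42% and 3.33%. Pdgfra, the receptor that marks cardiac fibroblasts, fell by 1.34 after F-PRT (adjusted p = 0.0086 in edgeR). The summed TPM of the list was 388 to 973 for NR, 399 to 537 for S-PRT and 187 to 665 for F-PRT, with overlap. The part of fibroblast content in the levels of C3 and C7 was not tested.

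Between the modes of irradiation, no member was called. In edgeR 0 of 14556 genes passed for F-PRT against S-PRT, that is 0%, and DESeq2 called 0 members, against 1.15% of genes. The fold changes of all 9 members were negative, from -0.09 ± 0.29 for C1qa to -1.44 ± 0.50 for C7, with -0.16 ± 0.30 for C1qb, -0.30 ± 0.28 for C1qc, -0.57 ± 0.30 for C1ra, -0.56 ± 0.54 for C4b, -0.73 ± 0.74 for Cfb and -0.60 ± 0.28 for Serping1. Negative values were not particular to the members. Fold changes were positive for 0 of 14 fibroblast markers, 1 of 22 macrophage and monocyte markers and 3 of 18 interferon genes. Positive values were found for 11 of 25 other complement genes and 6 of 10 endothelial markers. C3, at -1.08 ± 0.38 (adjusted p = 0.23 in edgeR), and C7 (adjusted p = 0.22) were lower at an unadjusted p under 0.05, as were 7.42% of genes. C3 was the only member whose F-PRT libraries all lay below the S-PRT libraries, which 5.17% of genes showed. The sign changed for C1qa and C1qb with library-size scaling (0.12 and 0.04), which moved the median of all genes in this comparison from 0.00 to 0.19. A p above the threshold does not show that the modes act alike.

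**Figure D3:**
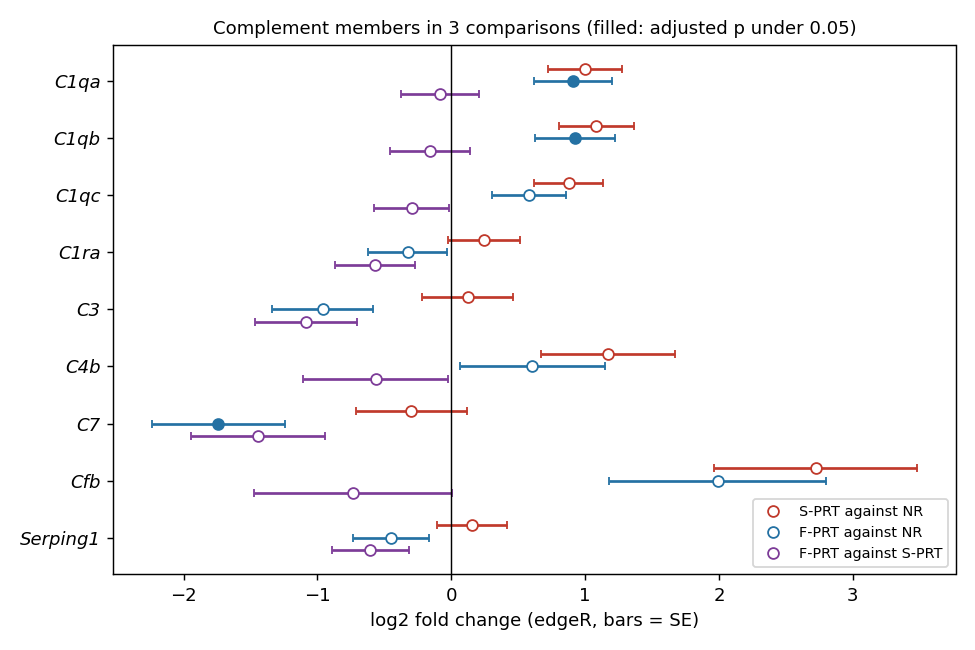
The plot gives the edgeR log2 fold change of each of the 9 genes on a linear axis, with bars for the SE, for each mode against NR and between the modes, and filled points have an adjusted p under 0.05. The 3 filled points are C1qa, C1qb and C7 for F-PRT against NR, and all 9 points of F-PRT against S-PRT lie below 0.

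Set side by side, the members grouped as macrophage-made and those grouped as stroma-made had different medians. For the 3 macrophage-made genes the median log2 fold change was 0.998 after S-PRT and 0.91 after F-PRT, against 0.20 and -0.39 for the 6 stroma-made genes and 0.01 and 0.03 for all genes tested. All 3 macrophage-made genes were positive in both, while 5 of the 6 stroma-made genes were positive after S-PRT and 2 of 6 (C4b and Cfb) after F-PRT. Summed over its 3 genes, macrophage-made complement was 54.0 to 113 TPM in NR, 81.4 to 210 for S-PRT and 70.1 to 198 for F-PRT. Summed over 6 genes, stroma-made complement was 24.0 to 83.6 TPM in NR, 33.8 to 79.9 for S-PRT and 19.8 to 54.5 for F-PRT. The groups overlapped in both sums, and the difference between the sets of genes was not tested. Which cells made each transcript was not measured. C4b, in the stroma-made group, had the macrophage gene Mpeg1, the fibroblast marker Postn and Clec4a1 as the 3 genes nearest to it in pattern over libraries, with Mpeg1 the nearest. Cfb, in the same group, lay nearest to interferon-induced genes.

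The genes nearest to each member in their pattern over the 11 libraries also differed between members. Likeness was measured as the root mean square difference of centred log2 CPM over the 11 libraries, which share depth and tissue composition, among 10568 genes. C1qa lay nearest to Fxyd5 (0.103), C1qb (0.110) and Tyrobp (0.121), where C1qa itself spread by 0.604 around its mean. C1ra lay nearest to Serping1 (0.0965), C1s1 (0.162) and Mrc2 (0.172), and Serping1 to C1ra, Mrc2 and C1s1. C3 lay nearest to the collagen genes Col1a1 (0.198) and Col1a2 (0.202) and to Ace (0.217), and C7 to Efemp1 (0.496), C3 (0.513) and Adgrd1 (0.528). C4b lay nearest to the macrophage gene Mpeg1 (0.215), Postn (0.269) and Clec4a1 (0.286). Cfb lay nearest to the interferon-induced genes Ifit1 (0.513), Ifit3 (0.540) and Usp18 (0.567), and C1qc to Vim (0.127), Sparc (0.135) and Laptm5 (0.140). These distances are to be read against the spread of each member around its own mean. That spread was 0.48 for C1ra, 0.47 for Serping1, 0.68 for C3 and 0.93 for C7. It was 0.91 for C4b, 1.55 for Cfb and 0.52 for C1qc.

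Of 48 other complement genes, 25 passed the count filter. After S-PRT 0 of the 25 rose and 0 fell in edgeR, with 6 higher and 1 lower at an unadjusted p under 0.05, a median of 0.01, and 6 rises and 0 falls with the replicate block, where 6.42% of all genes rose. At that unadjusted threshold 18.3% of all genes passed in either direction. The 6 were Cfp, Clu, C3ar1 and the integrin subunits Itgam, Itgax and Itgb2, of which Itgam and Itgax each pair with Itgb2 as receptors for cleaved C3. After F-PRT 0 rose and 2 fell (Cpn2 and Colec12), against 10.8% and 8.67% of all genes. At an unadjusted p under 0.05, 5 were higher and 2 lower, against 19.6% and 16.5% of all genes, and the median was 0.06. Over both modes 1 rose (Cfp) and the same 2 genes fell, against 8.15% and 6.40%, and between the modes 0 were called in edgeR, with 0 higher and 2 lower at an unadjusted p under 0.05, where 7.42% of all genes were lower. The shares of calls after F-PRT were near or under those of all genes.

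Properdin, encoded by Cfp, stabilises the alternative pathway convertase. Cfp measured 3.06, 2.43, 3.58 and 4.51 CPM in NR, 5.23, 6.30, 9.94 and 4.86 CPM in S-PRT and 7.18, 3.56 and 8.06 CPM in F-PRT. All S-PRT libraries were above all NR libraries, and F-PRT 3 was within the NR range. It rose by 0.91 ± 0.26 over both modes (adjusted p = 0.037 in edgeR), with 0.94 ± 0.29 after S-PRT (adjusted p = 0.12) and 0.89 ± 0.31 after F-PRT (adjusted p = 0.058). With the length trend removed the value over both modes was 0.76 (adjusted p = 0.084), and the call was also lost with library-size scaling (0.15), on TPM (0.34), with the replicate block (0.080) and without any 1 of the NR libraries, S-PRT 3, F-PRT 2 or F-PRT 4.

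Among the remaining genes, Cpn2, the regulatory subunit of the carboxypeptidase that trims the anaphylatoxins, fell by 1.60 ± 0.37 after F-PRT (adjusted p = 0.016 in edgeR) from 3.25 ± 0.847 CPM in NR to 1.14 ± 0.849 CPM. F-PRT 2 and F-PRT 4 carried that fall, at 0.722 and 0.576 CPM, while F-PRT 3 stood at 2.11 CPM, and the call was lost without F-PRT 2 or F-PRT 4, with the length trend removed (adjusted p = 0.060) and with the replicate block (0.13). Colec12, a scavenger collectin, fell by 0.65 ± 0.18 (adjusted p = 0.027), a call that was lost with the length trend removed (adjusted p = 0.14), with library-size scaling (0.19), on TPM (0.37), with only the groups compared (0.054), with the replicate block (0.12) and without any 1 of NR 1, NR 3, NR 4, F-PRT 2 or F-PRT 3. C3ar1, the receptor for the C3a fragment, measured 2.61, 2.504, 4.21 and 4.51 CPM in NR and 4.46, 4.66, 8.09 and 6.68 CPM in S-PRT, a fold change of 0.78 ± 0.26 (adjusted p = 0.15) that was positive in 4 of 4 pairs. C5ar1 stood at 2.14 ± 0.515 CPM in NR, 2.99 ± 1.05 for S-PRT and 2.65 ± 0.992 for F-PRT. C2, the partner of C4, reached at most 0.777 CPM.

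Several steps of the cascade were at or near 0 in these hearts. The 23 genes below the filter included Hc, which encodes C5, with at most 4 expected counts in a library, C6 with at most 7, C8a with at most 2, and C8b and C9 with 0. Of the terminal genes C7 and C8g remained, and C8g stood at 0.63 to 1.68 TPM. Cfd, the protease that cleaves factor B, had at most 14 expected counts and Cfi, which inactivates C3b, at most 6. The 6 hepatocyte markers summed to at most 1.24 TPM, with Serpina1a and Fga at 0 in all 11 libraries and Alb at most 0.04 TPM. Ahsg made up most of that sum and was detected in every library, at 0.61 ± 0.0779 TPM in NR, above the 0.475 TPM of Cfb, and it was the 1 marker of the list that passed the count filter. Adipocytes are a main source of Cfd, and the 5 adipocyte markers summed to at most 0.32 TPM.

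**Figure D4:**
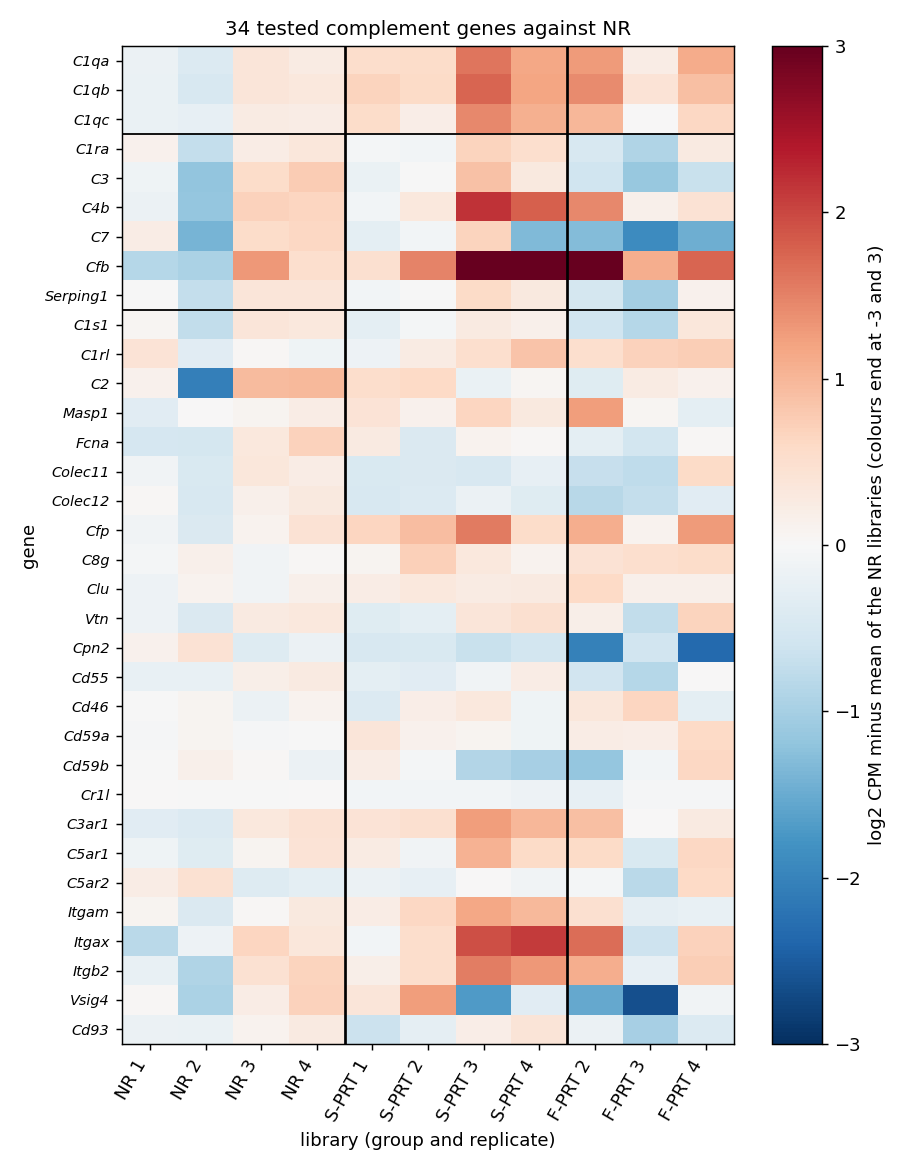
The heat map shows 34 tested complement genes, the 9 members above the second line and 25 others below, by library, as log2 CPM minus the mean of the NR libraries on a colour scale that ends at -3 and 3. C4b and Cfb are darkest in S-PRT 3, S-PRT 4 and F-PRT 2.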

How the data were processed

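RNA from the heart apex was sequenced in 11 libraries after poly(A) selection with a directional kit, per the labels' protocols. The submitters' processing notes name FastQC, cutadapt, STAR, RSEM and edgeR, without versions, and 2 builds, GRCm39 and mm10. Strand-specific counting is not stated there, so overlapping and antisense genes are uncertain. The deposited values per gene were expected counts, in which RSEM shares ambiguous reads between genes, and TPM, per the file headers. The deposited transcript lengths in bases are averages over isoforms, per the file headers. Of 55414 identifiers, 52081 matched a mouse gene name. Depth was 20758170 to 40136578 expected counts a library.

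Expected counts were rounded, filtered with filterByExpr (minimum count 10, minimum total 15), scaled with TMM and fitted over all 11 libraries with edgeR 4.0.16 in R 4.3.3, without a replicate block (8 residual degrees of freedom). The irradiated groups together are the mean of the S-PRT and F-PRT coefficients. Groups and replicate numbers came from sample titles. The members and gene lists were chosen with earlier results of these data known. All members are named. Other complement genes are named where they passed in any comparison, are partners or copies of a member, or were absent, together with the 3 genes most like each member among those averaging at least 1 log2 CPM. Some results are not reported here. Itgam, Itgax, Itgb2, Clu, C8g and the cell markers were named after their values were seen.

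The 4 same-numbered pairs of NR and S-PRT had correlations of their deviations from the group means of 0.184 to 0.363 over 11107 genes, so these numbers were taken as pairs, although the labels link them to no animal or day. Different-numbered pairs within replicates 1 and 2 or within 3 and 4 correlated as strongly (0.167 to 0.443), and pairs of 1 or 2 with 3 or 4 at -0.447 to -0.198, so the correlation is not specific to the number. With F-PRT the correlations were -0.446 to 0.233, and no pairing was assumed. Alternatives were DESeq2 1.42.0, library-size scaling, no filter, removal of the length trend (loess, span 0.5), limma 3.58.1 on log2(TPM + 1), only the groups compared, the replicate block, and each library left out. The fits were tested on simulated data.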

Additional observations from a re-analysis of the deposited data

Results flagged for a closer look

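None of the 18 groups of 4 libraries checked over the 9 members in NR and S-PRT had a library whose gap to its nearest neighbour, as a share of the range of the group, exceeded the critical value of Dixon's test. The groups of 3 were not checked.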

How the results depend on the processing

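Results were refitted under each alternative. For S-PRT against NR, 0 of 9 members were called, against 4 without a filter, 4 with DESeq2 and 5 with the replicate block, and stayed at 0 with each library left out. For F-PRT against NR the 3 calls became 5 without a filter and 0 with library-size scaling, the length trend removed, limma on TPM, the replicate block or NR 3 and NR 4 left out, an alternative chosen after seeing the data. Leaving out 1 library gave 0 to 2. For the irradiated groups together the 3 calls became 5 without a filter and 0 under the same 5 alternatives, and 0 to 4 with 1 library left out. F-PRT against S-PRT stayed at 0 members under every alternative run. The replicate block in F-PRT comparisons used numbers that the data do not pair, and why calls were lost there was not tested.

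Over all genes, the 188 calls for S-PRT against NR became 14 with library-size scaling, 605 without a filter, 107 with the length trend removed, 697 with DESeq2, 2 on TPM, 557 with only the groups compared, 1371 with the replicate block and 0 without NR 3 and NR 4, and 26 to 191 with 1 library left out. For F-PRT against NR, 2841 became 134 with library-size scaling, 325 with the length trend removed, 71 on TPM, 29 with the replicate block and 144 without NR 3 and NR 4, and 1382 to 3784 with 1 library left out. For the irradiated groups together, 2118 became 213, 410, 33, 910 and 36 in the same order, and 517 to 3252. For F-PRT against S-PRT, 0 became 71 without a filter, 168 with DESeq2, 9 on TPM and up to 103 with 1 library (F-PRT 3) left out.

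Sign changes fell on values that were not called. For S-PRT against NR they were C3 (-0.0569 with library-size scaling, -0.14 to 0.39 with 1 library left out), Serping1 (-0.00093 with library-size scaling, -0.04998 on TPM, -0.0309 to 0.27 with 1 left out) and C7 (0.28 without NR 3 and NR 4). For F-PRT against S-PRT they were C1qa (0.119 with library-size scaling, 0.119 on TPM, -0.28 to 0.16 with 1 left out), C1qb (0.0376, 0.0667 and -0.44 to 0.0821), Cfp (0.18, 0.14 and -0.27 to 0.20) and C4b (0.21 on TPM). For the irradiated groups together they were C1ra (-0.24 to 0.0730 with 1 left out, 0.24 without NR 3 and NR 4), C3 (0.32) and Serping1 (0.23), both without NR 3 and NR 4. The causes were not tested. Counts under 10 in NR 1 and NR 2 limit Cfb.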
